A study of Homo sapiens with 14 samples.

Results

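The stress and basal keratins KRT5, KRT6A, KRT6B, KRT14, KRT16 and KRT17 and the simple keratins KRT7, KRT8, KRT18 and KRT19 were followed probe by probe in glioblastoma cells in which the long noncoding RNA LINC00152 had been knocked down. The genes were chosen by the signals of KRT14, KRT16 and KRT17 probes, which were higher after the knockdown in A172 cells, and were completed by name with their partners and the simple keratins. The A172 values of these keratins are therefore given as a description, and where a count of limma calls among them is printed, nothing is read from it. The U87-MG values did not enter the choice and were tested. All 10 genes, of 20992 genes named on the array, had a probe, and they held 15 of the 50599 different probes that were not controls.

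A172 and U87-MG are established cell lines that were derived from human glioblastoma, a brain tumour, and are grown as pure cultures. Cells were electroporated with a negative control siRNA or with an siRNA that targets the first exon of LINC00152, and their RNA was taken after 40 h according to the labels. The study's text gives a later time. The groups were A172 with control siRNA and A172 with siLINC00152, each with 3 arrays, and U87-MG with control siRNA and U87-MG with siLINC00152, each with 4 arrays. The study describes the replicates as independent, and the labels give each array a set number. A control and a knockdown array with the same set number were taken as a pair, which the labels do not state. The labels do not say which of the study's siRNAs against this exon was used on the arrays. The study tested the siRNA shown here in both lines. It is shown because it is the likely siRNA of all comparisons, with nothing in capitals.
siLINC00152 #1: tgcctgtcttcagatcttcacagca

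Keratins are the intermediate filament proteins of epithelial cells. A filament is built from pairs of a type I and a type II keratin, so that KRT8 goes with KRT18 in simple epithelia and KRT5 with KRT14 in the basal layer of stratified epithelia. KRT6A, KRT6B, KRT16 and KRT17 are known as stress keratins because epidermis makes them on wounding, whereas cells of glial origin mainly build their filaments from vimentin, nestin and GFAP. Coding sequences of the type I keratins KRT14, KRT16 and KRT17 are much alike, and several pseudogenes carry copies of them, so a probe designed for any of these genes can bind RNA of another. Probe sequences were not used here, and which of these RNAs a probe read cannot be told apart.

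Each array gave 58717 spots that were not controls, with a brightness from which the scanner software had removed the background. Levels are given as the log2 of this processed signal relative to the 75th percentile of the same array, so that 0 is the level of that percentile. A probe was counted as detected on an array when the software marked it as well above background for at least 0.5 of its spots. The share of spots well above background was 57.3% to 69.0% on the A172 arrays (median 64.0%) and 35.7% to 48.3% on the U87-MG arrays (median 46.0%). The number of arrays limits the precision of every difference. In A172 each set lay on a slide of its own, so a difference within a set is also a difference within a slide. All 8 U87-MG arrays lay on another slide that was scanned apart, and levels of the lines cannot be told apart from slide and scan.

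Both arrays of U87-MG set 3 stood apart from the others of that line. The 75th percentile of the processed signal was 33.0 on control array 3 and 42.6 on knockdown array 3, against 56.7 to 69.0 on the other U87-MG arrays. Spots well above background made up 35.7% and 40.4% on these arrays, against 44.4% to 48.3% on the others. A dim array has a higher floor on the scale used here. This floor, the lowest level of any detected probe, was -1.12 on control array 3 and -1.75 on knockdown array 3. It was -2.35 to -1.97 on the other U87-MG arrays and -4.32 to -3.27 in A172. Some probes above the floor were not detected either. U87-MG results for the tested keratins, the LINC00152 locus, HBEGF and NQO1 are given with and without set 3, and other U87-MG results with all sets.

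LINC00152, also named CYTOR, was read first because it checks the labels. The CYTOR probe A_24_P273143 stood at 2.63, 2.44 and 2.48 on the A172 control arrays and at 0.23, -0.42 and -0.10 on the knockdown arrays. In U87-MG it stood at 1.94, 1.83, 1.71 and 1.82 on the control arrays and at -1.21, -0.88, -0.74 and -0.79 on the knockdown arrays. The groups did not overlap in either line. With limma, the CYTOR probe was lower by a log2 difference of -2.61 (SE 0.24, adjusted p = 0.000731) in 3 of 3 A172 sets and by -2.73 (SE 0.21, adjusted p = 0.000050) in 4 of 4 U87-MG sets. A probe of MIR4435-2HG, a close relative of CYTOR on the same chromosome, A_21_P0012079, differed by -2.44 in A172 (SE 0.28, adjusted p = 0.00339) and by -2.97 in U87-MG (SE 0.24, adjusted p = 0.000071) with limma, again in every set. Without U87-MG set 3 these U87-MG differences were -2.82 and -3.01. The signals follow the labels on all 14 arrays.

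Markers of other cell types were read before the keratins. Of 10 glioma line markers, 7 were detected on at least 1 A172 array, and VIM or NES had the brightest probe on each of them, while FABP7, PDGFRA and S100B were never detected. In U87-MG 5 were detected, with VIM brightest on every array, and GFAP and SOX2 were missing as well. Epithelial and squamous markers bear most on keratins. Of 16 epithelial markers, 13 were detected on some A172 array and 9 on some U87-MG array, with CLDN7, a tight junction protein, brightest, and CDH1 and RAB25 were among those never detected in either line. EPCAM, ELF3, ESRP1 and GRHL2 were also never detected in U87-MG. Of 15 squamous markers, 11 were detected in A172 and 10 in U87-MG, with KRT15 brightest on every array. DSC3, DSG3, KRT1 and LY6D were detected in neither line. Of the fibroblast, leukocyte and endothelial markers, 5 of 6, 6 of 6 and 4 of 5 were detected in A172. In U87-MG these counts were 1 of 6, 5 of 6 and 3 of 5. Detection of a marker on these arrays therefore does not by itself show a cell type.

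The summed levels of the epithelial and squamous lists overlapped between control and knockdown arrays, and within the A172 sets they moved both ways. Summed over the epithelial list, on the linear scale relative to the 75th percentile, A172 control arrays gave 33.2, 64.8 and 47.0 and knockdown arrays 41.7, 63.9 and 39.4. The squamous sums were 62.0, 114 and 78.5 on A172 control arrays and 53.7, 117 and 88.5 on the knockdown arrays. On the linear scale most of each sum came from the brightest gene, CLDN7 in the epithelial and KRT15 in the squamous list. These sums therefore say little about the dimmer markers of the lists. The glioma sums were lower within each A172 set, from 241 to 209, from 300 to 260 and from 230 to 196, while the ranges of the groups overlapped. In U87-MG they were higher within each set, most in set 3, from 411 to 561. Neither was tested. In U87-MG the epithelial sums ran from 73.0 to 94.6 in controls and from 68.7 to 88.6 after knockdown, and the squamous sums from 16.4 to 38.7 and from 15.7 to 41.5. The lowest squamous sums of that line were those of set 3. RNA was taken from whole cultures, in which fewer cells of a type and less RNA per cell cannot be told apart.

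In A172, KRT14, KRT16 and KRT17 were low in every control culture and far higher in every culture with siLINC00152. KRT14 forms the basal filaments of stratified epithelia together with KRT5. Its probe A_21_P0011517 stood at -1.74, -2.05 and -1.51 on the control arrays and at 1.05, 1.98 and 1.72 on the knockdown arrays. Every knockdown array lay above every control array, and the differences within sets 1, 2 and 3 were 2.79, 4.03 and 3.23, with a mean of 3.35 and a 10.2-fold higher mean level. A second KRT14 probe, A_33_P3345534, stood at -3.89, -2.72 and -3.35 in controls and at -0.43, 0.48 and 0.07 after knockdown. The groups lay as far apart as with the first probe, with a mean difference of 3.36, which is 10.3-fold. The third KRT14 probe, A_21_P0011633, did not do this. It stood at -3.05, -2.01 and -2.01 in controls and at -2.20, -1.15 and -1.60 after knockdown. Its groups overlapped, and its differences were 0.85, 0.87 and 0.41 with a mean of 0.71. That mean ran from 0.36 to 0.99 when a set or an array was left out. Probes assigned to the same gene thus gave different sizes of change, and the reason was not tested.

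KRT16, a type I keratin of wounded and hyperproliferative epidermis, showed the same picture. Its probe A_23_P38537 stood at -1.77, -2.04 and -1.67 on the A172 control arrays and at 0.87, 1.73 and 1.78 on the knockdown arrays. The groups were apart, with differences of 2.63, 3.77 and 3.45 and a mean of 3.29, a 9.75-fold higher level. KRT17, which is made in skin appendages and on wounding, stood at -2.49, -1.81 and -2.52 with probe A_23_P96158 in controls and at -0.33, 0.77 and -0.15 after knockdown. Its differences were 2.16, 2.59 and 2.37, with a mean of 2.37 or 5.18-fold, the smallest among these 4 probes. The SD within groups was 0.19 to 0.59 for these 4 probes, far below their differences. All 4 were detected on all 6 A172 arrays, so none of these folds rests on an undetected group.

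With limma, at an FDR below 0.2 and an absolute log2 difference above 0.5, 4 of the 13 member probes tested in A172 were called, all higher, against 0.183% of 28338 tested probes in either direction and 0.0459% in the higher direction. These 4 probes were also the 4 whose arrays did not overlap, against 3.44% of all tested probes with every knockdown array above every control array. Nothing is read from these counts, since this contrast chose the genes and calls among them followed from the choice. The call depended on the sets used: 1 of the member probes was called without A172 set 2 and 0 without A172 set 3. KRT17 was called in 6 of the 21 fits with a set or an array of either line left out. The differences of the 4 probes themselves stayed between 2.03 and 3.66 in these fits. With another background correction (normexp with an offset of 50), which draws dim values together, the mean differences were smaller, at 2.44 and 1.61 for the KRT14 probes, 2.21 for KRT16 and 1.39 for KRT17. The direction was the same under every scaling that was tried.

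**Figure D1:**
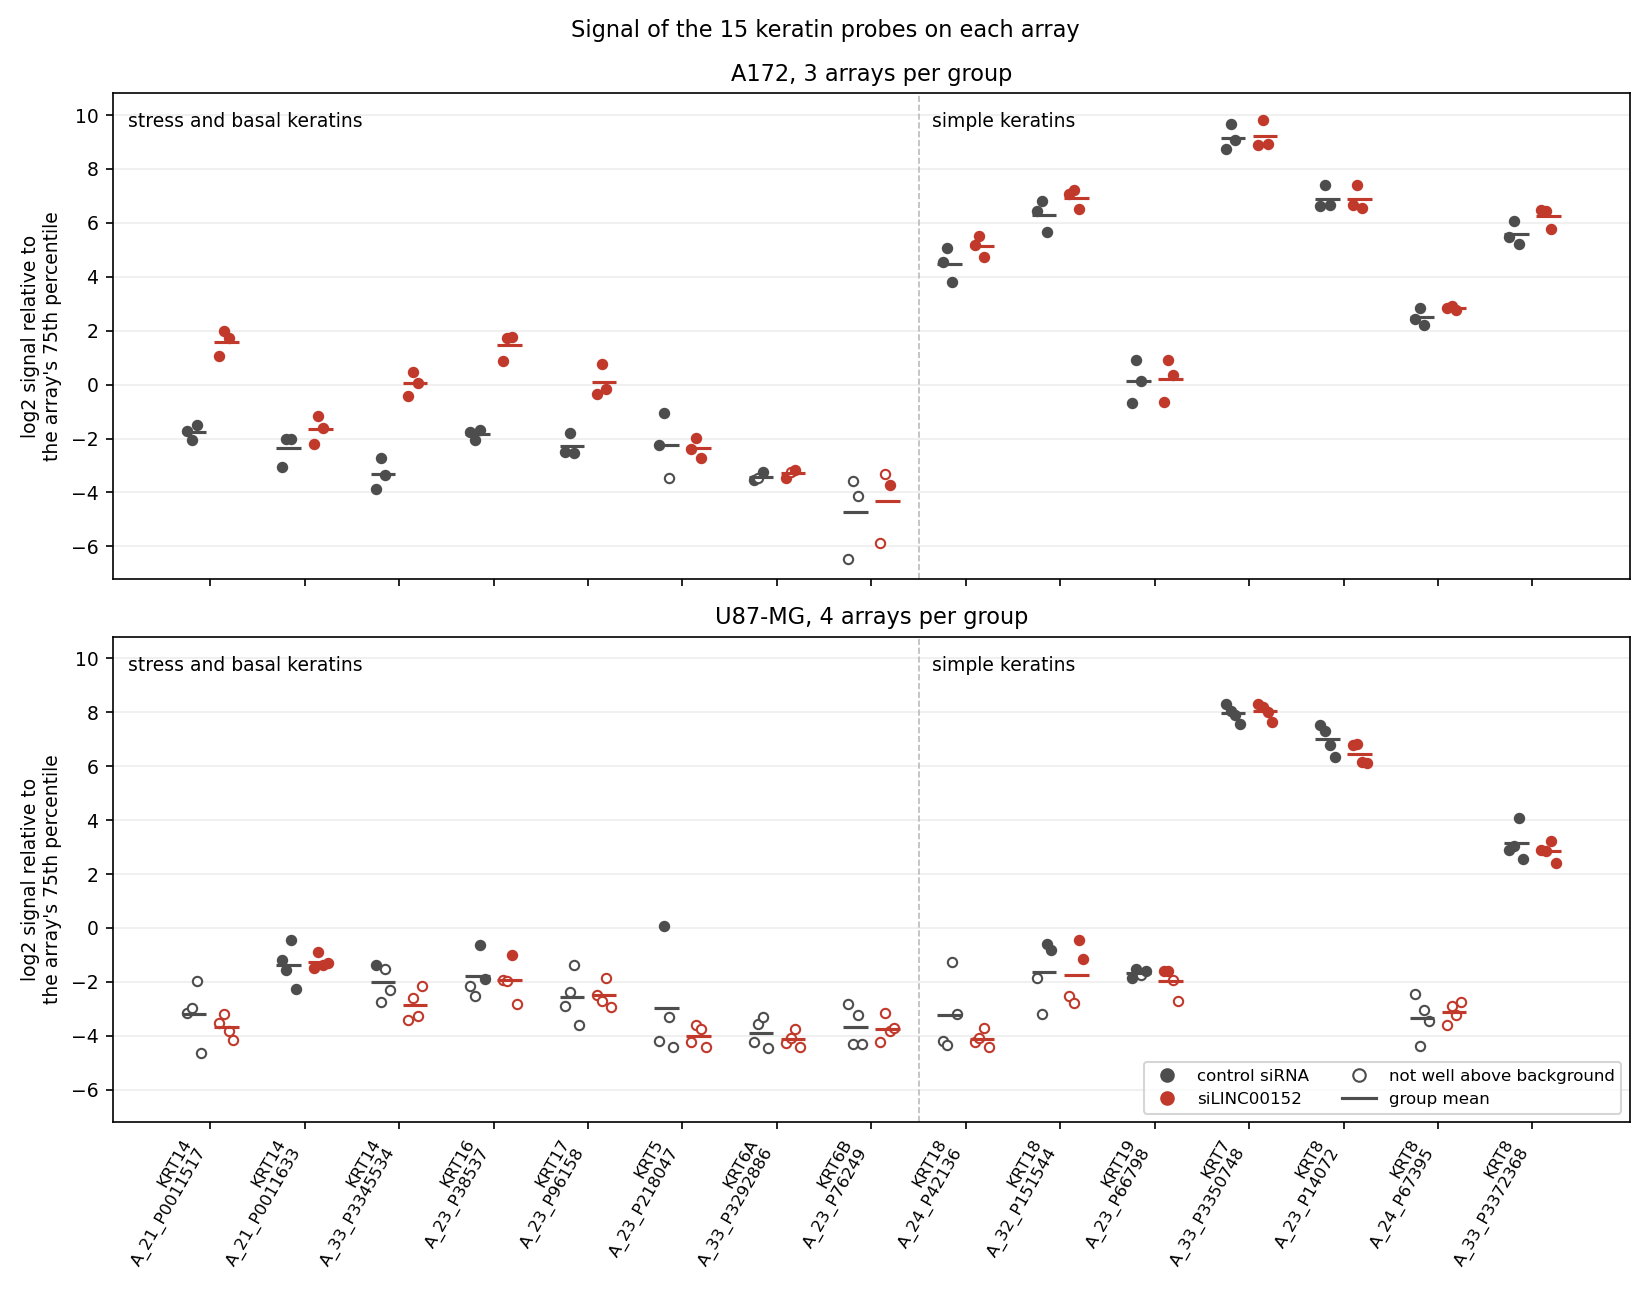
Log2 signal of the 15 keratin probes relative to the 75th percentile of each array, for A172 (top) and U87-MG (bottom), with control siRNA in grey and siLINC00152 in red, open circles for arrays on which a probe was not well above background and lines for group means. In A172 the KRT14 probes A_21_P0011517 and A_33_P3345534 and the KRT16 and KRT17 probes lie apart between the groups (for KRT16 at -2.04 to -1.67 and 0.87 to 1.78), while in U87-MG most circles on the left are open.

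Their usual type II partners did not show such distances in A172. KRT5, the partner of KRT14, stood at -2.23, -1.04 and -3.48 with probe A_23_P218047 in controls, the last of these not detected, and at -2.40, -1.98 and -2.70 after knockdown. Its differences pointed both ways, at -0.18, -0.94 and 0.77, and had a mean of -0.12. KRT6A, the stress partner of KRT16, had a probe (A_33_P3292886) that lay near the floor, at -3.54, -3.47 and -3.25 in controls and at -3.45, -3.25 and -3.15 after knockdown, detected on 2 of 3 arrays in each group. The groups lay on the same level, with a mean difference of 0.14. KRT6B (A_23_P76249) was detected on 1 of the 6 A172 arrays, knockdown array 3, at -3.71. KRT6A and KRT6B were not tested for that reason.

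The simple keratins KRT7, KRT8 and KRT18 were bright in A172 before any knockdown. KRT7, a type II keratin of ducts and glands, stood at 8.73, 9.65 and 9.07 in controls and at 8.89, 9.82 and 8.93 after knockdown with probe A_33_P3350748. The sets differed far more from one another than the groups did, and the mean difference was 0.06. KRT19, a type I keratin of simple epithelia that lacks most of the usual tail, stood at -0.70, 0.93 and 0.12 in controls and at -0.63, 0.92 and 0.36 after knockdown (A_23_P66798), with a mean difference of 0.10. Here too the values differed more between sets than within them, and the groups overlapped.

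KRT18 and KRT8, the first keratins of the embryo and the pair of simple epithelia, gave smaller differences in A172 than the 4 called probes of KRT14, KRT16 and KRT17. The KRT18 probe A_32_P151544 stood at 6.43, 6.82 and 5.66 in controls and at 7.07, 7.24 and 6.51 after knockdown, and the probe A_24_P42136 at 4.54, 5.05 and 3.81 and at 5.18, 5.51 and 4.73. Both were higher in 3 of 3 sets, by means of 0.64 and 0.67, but their groups overlapped. With a set or an array left out these means ran from 0.31 to 0.89 and from 0.34 to 0.97. The 3 KRT8 probes did not move alike. Probe A_23_P14072 stood at 6.62, 7.39 and 6.66 in controls and at 6.66, 7.39 and 6.57 after knockdown, a mean difference of -0.02. Probe A_33_P3372368 stood at 5.46, 6.08 and 5.21 and at 6.49, 6.45 and 5.77, a mean difference of 0.65 with 3 of 3 sets higher. Probe A_24_P67395 stood at 2.44, 2.86 and 2.21 and at 2.85, 2.93 and 2.76, with a mean difference of 0.34 that lay between theirs. This difference ran from 0.19 to 0.52 with a set or an array left out. None of these 5 probes was called in A172, with or without a term for the set in the model.

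In U87-MG the stress and basal keratin probes were undetected on most arrays, except for the KRT14 probe A_21_P0011633, which was detected on all 8. Of the 15 member probes, 4 were detected on every array, 6 on none and 5 could be tested, which belong to KRT7, KRT8, KRT14 and KRT19. The KRT14 probe A_21_P0011517 and the KRT17 probe were not detected on any of the 8 arrays, nor were KRT6A, KRT6B, the KRT18 probe A_24_P42136 and the KRT8 probe A_24_P67395. The KRT14 probe A_33_P3345534 was detected on control array 1 alone, at -1.36. KRT16 was detected on control arrays 3 and 4, at -0.62 and -1.90, and on knockdown array 3. Of these probes, KRT16 alone was detected on a knockdown array of U87-MG, at a level between its detected controls. KRT5 was detected on control array 2 alone, at 0.08, whereas it stood at -4.43 to -3.31 on the other control arrays and at -4.42 to -3.59 after knockdown. The KRT18 probe A_32_P151544 was detected on 2 arrays of each group, at -0.59 and -0.83 and at -0.46 and -1.17. At this brightness, levels of these keratins under the floor of the U87-MG arrays were not detectable, and their absence is not shown.

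None of the 5 tested probes was called in U87-MG with limma, and 0 had an unadjusted p below 0.05, against 0.0502% of 21921 tested probes called in either direction. For none of the 5 were the arrays of the groups apart, against 2.8% of all tested probes. The KRT14 probe A_21_P0011633, the one that had moved least in A172, stood at -1.19, -1.57, -0.46 and -2.27 in controls and at -1.48, -0.88, -1.36 and -1.29 after knockdown. Its sets pointed both ways, and limma gave a log2 difference of 0.12 (SE 0.38, 95% interval -0.68 to 0.92, adjusted p = 1.00, higher in 2 of 4 sets). KRT7 stood at 8.31, 8.05, 7.89 and 7.57 in controls and at 7.65 to 8.32 after knockdown, with a difference of 0.09 (SE 0.29, interval -0.53 to 0.71). KRT19 stood at -1.85, -1.51, -1.75 and -1.58 and at -1.59, -1.61, -1.93 and -2.73, with a difference of -0.29 (SE 0.39, interval -1.12 to 0.54). KRT19 was undetected on control array 3 and on knockdown arrays 3 and 4, so its lowest value, -2.73, is an undetected one. These intervals, from the fit without a block, hold differences of 0.5 in both directions for KRT14, KRT7 and KRT19. With the set as a block they were -0.55 to 0.79 for KRT14, -0.14 to 0.33 for KRT7, which was higher in 4 of 4 sets, and -0.77 to 0.19 for KRT19, and none of the 3 was called. Without set 3 the differences were 0.46 for KRT14, 0.09 for KRT7 and -0.33 for KRT19. With a set or an array left out, KRT19 ran from -0.42 to -0.0374 in the 15 of 21 fits in which it could be tested.

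KRT8 was lower in U87-MG by 1 of its probes, but only the fit with a term for the set called it. Probe A_23_P14072 stood at 7.53, 7.30, 6.80 and 6.36 on the control arrays and at 6.77, 6.82, 6.14 and 6.14 on the knockdown arrays. The groups overlapped, yet each knockdown array lay below the control array of its set, by -0.76, -0.48, -0.66 and -0.22. Without a term for the set, limma gave a difference of -0.53 (SE 0.32, 95% interval -1.21 to 0.15, adjusted p = 1.00, lower in 4 of 4 sets). With the set as a block, limma gave the same difference of -0.53 with an SE of 0.12, an interval of -0.80 to -0.26 and an adjusted p of 0.102, lower in 4 of 4 sets. This was the 1 member probe called with the block, and the 1 with an unadjusted p below 0.05, against 2.07% of all tested probes called lower and 2.12% called higher. A share of 1 in 5 probes is too small a number to set apart from that background. The KRT8 probe A_33_P3372368 stood at 2.90, 3.05, 4.09 and 2.56 and at 2.91, 2.86, 3.21 and 2.41, with a difference of -0.30 (SE 0.33, interval -1.02 to 0.41) that was not called in either fit. Without set 3 the differences were -0.49 and -0.11, and no fit with the block was made without that set. Whether KRT8 differs between the lines in its response was not tested.

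**Figure D2:**
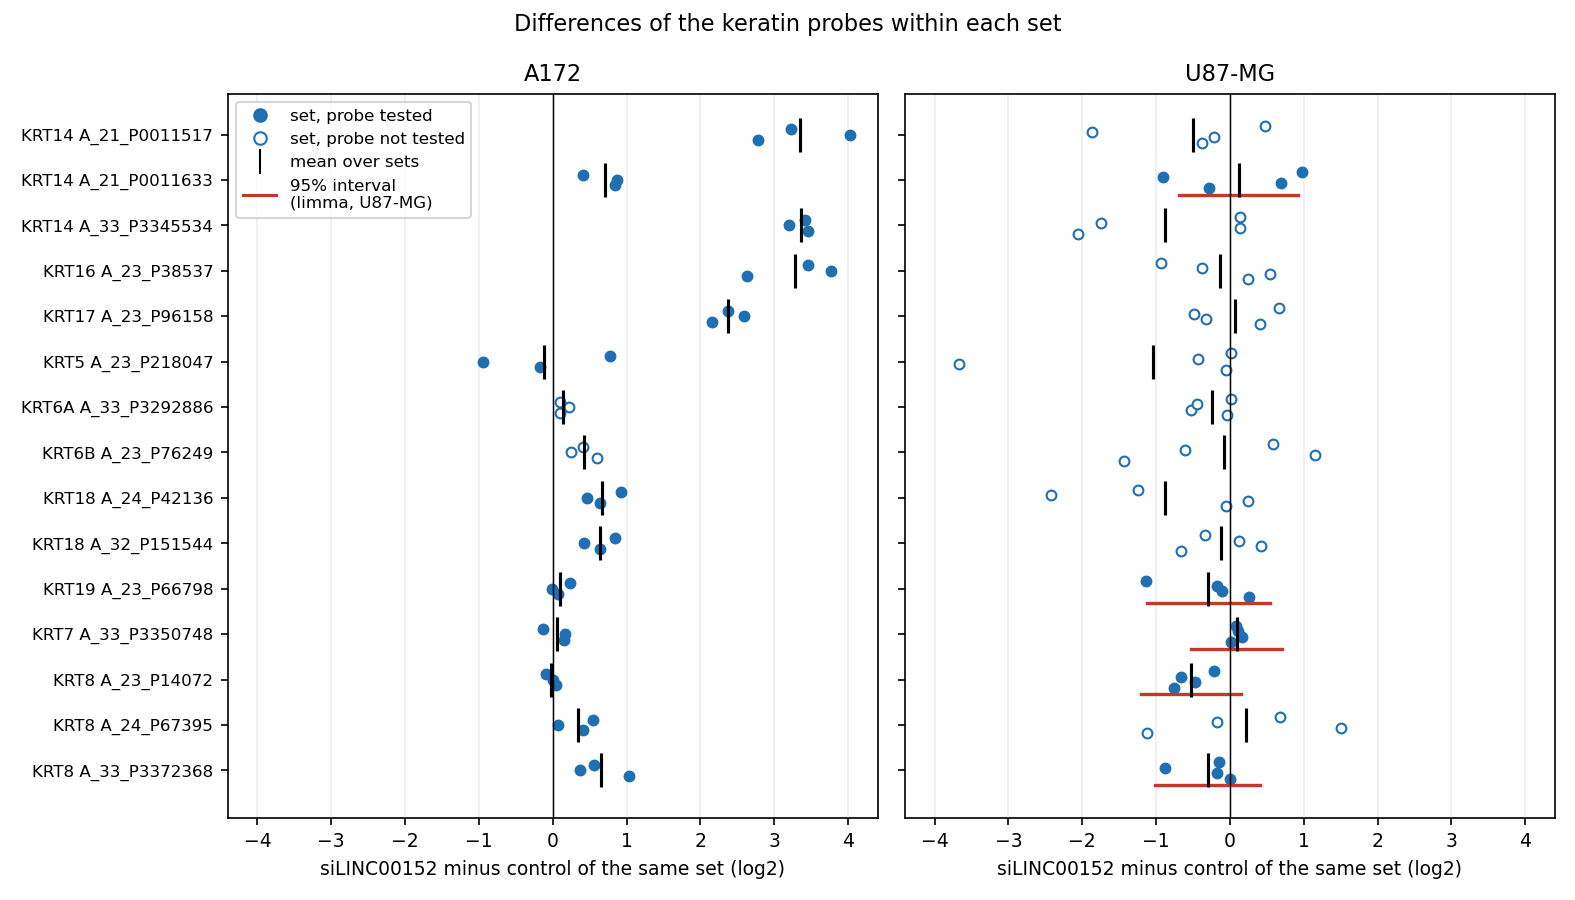
Log2 difference between the knockdown and the control array of each set for the 15 keratin probes, in A172 (left, 3 sets) and U87-MG (right, 4 sets), with open circles for probes not tested in that line, black bars for means over sets and red lines for the 95% intervals of the probes tested in U87-MG with limma. In A172 the sets lie at 2.16 to 4.03 for 4 probes of KRT14, KRT16 and KRT17, and in U87-MG the intervals, drawn from the fit without a block, cross 0 for all 5 tested probes, while with the set as a block the interval of KRT8 A_23_P14072 is -0.80 to -0.26.

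Keratin pseudogenes are copies of keratin genes that no longer make a full protein, and their RNA is part of the question of what a probe read. Of 25 keratin pseudogenes in the list, 22 were in the RefSeq gene table and 5 had probes, 8 in all. The study lists primer pairs named KRT17P1 and KRT17P2, shown here because they picture how alike these copies are: both pairs use the same forward primer, printed in capitals, and differ in the reverse primer.
KRT17P1-for and KRT17P2-for: AGAACCTCAATGACCGCCTG
KRT17P1-rev: ttgcggttcttctctgccat
KRT17P2-rev: cagctcactgttggtagcca
No probe on the array was named for either of these pseudogenes.

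Of the 8 pseudogene probes, 2 stood far higher after the knockdown in A172, those of KRT16P2 and 1 of KRT42P. KRT16P2, probe A_32_P62963, stood at -1.95, -2.39 and -2.23 in controls and at 0.87, 1.94 and 1.72 after knockdown, a mean difference of 3.69. Its groups were apart, like those of KRT16. KRT42P, probe A_33_P3857239, stood at -3.30, -3.62 and -4.12 in controls, detected on 1 of 3 arrays, and at -1.45 to -0.70 after knockdown, detected on 3 of 3, a mean difference of 2.63 whose size rests partly on undetected controls. A second KRT42P probe, A_33_P3341490, differed by 0.63, and it was called higher with the set as a block only. The other 5 probes, of KRT16P3, KRT17P5 and KRT19P2, differed by -0.01 to 0.34. As for the keratins, these A172 values are a description, since the same contrast chose the genes. In U87-MG the KRT16P2 probe was detected on no array, and the 5 pseudogene probes tested with limma differed by -0.36 to 0.12, with 0 called and 0 at an unadjusted p below 0.05. Outside the list, a KRT18P55 probe, A_23_P373708, differed by 0.67 in A172, close to the probes of KRT18, and a KRT8P41 probe was detected on no array.

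Of the 13 probes called higher in A172, 4 were keratin probes and 2 were keratin pseudogene probes. Another 3 carried no gene name: A_21_P0011578, A_24_P882732 and A_24_P887857, which were higher by 2.63, 2.75 and 2.90 and were detected on 3, 1 and 2 of the 3 control arrays. SORBS2, PPIF and ELAVL2 were also among the 13, with differences of 1.63, 1.49 and 1.98, and SORBS2 and ELAVL2 were detected on 1 of 3 control arrays each. Differences against partly undetected controls are not measured sizes. The 9 keratin, pseudogene and unnamed probes went together over the 6 A172 arrays, with a Pearson r between 0.922 and 0.998 for their 36 pairs. This grouping was chosen after the values were seen, and the arrays share the siRNA contrast and the slides, so a high r is a description of it and no independent result. A single bright RNA read by many probes and several RNAs that rise together cannot be told apart from these values.

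The likeness between probes drew a second grouping among the simple keratins. Over the A172 arrays the KRT18 probes went together with an r of 0.994, and each went with the KRT18P55 probe with 0.979 and 0.974. The KRT8 probes fell on different sides. A_24_P67395 and A_33_P3372368 followed KRT18P55 with an r of 0.975 or more, whereas A_23_P14072 followed KRT7 with 0.966 and had an r of only 0.570 and 0.530 with the other KRT8 probes. KRT19 went with KRT7 (0.889) and with the pseudogene KRT19P2 (0.966). The KRT14 probe A_21_P0011633, which differed least, was more like KRT17P5 A_32_P46238 (0.938) and KRT42P A_33_P3341490 (0.940) than like the KRT14 probe A_21_P0011517 (0.677). Over the 8 U87-MG arrays the KRT8 probe A_33_P3372368 went with KRT17P5 A_32_P46238 at an r of 0.952 and with KRT19P2 at 0.933, and with the other tested KRT8 probe at 0.216. These U87-MG coefficients share the dim arrays of set 3, and their part in them was not tested.

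**Figure D3:**
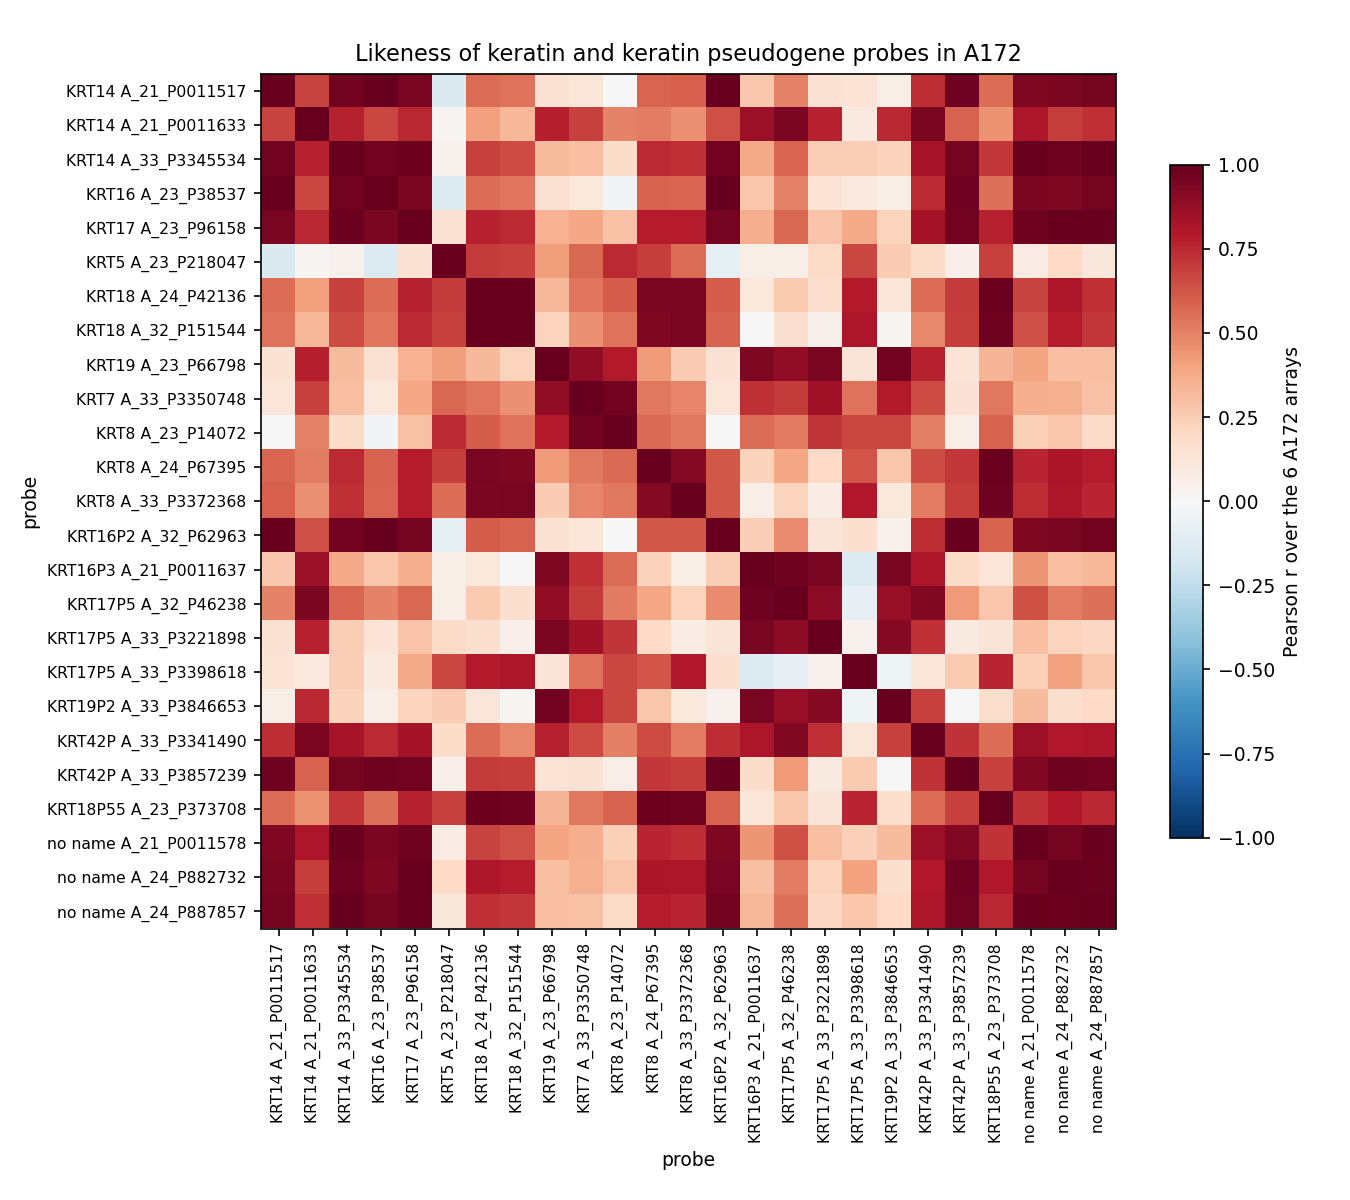
Pearson r over the 6 A172 arrays between the log2 levels of keratin, keratin pseudogene and 3 unnamed probes, with red for positive and blue for negative values. The KRT14, KRT16, KRT17, KRT16P2, KRT42P A_33_P3857239 and unnamed probes form dark bands (0.922 to 0.998 among 9 of them), and the KRT18, KRT18P55 and 2 of the KRT8 probes form others.

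Outside the keratins, the genes most like KRT14, KRT16 and KRT17 over the A172 arrays, by Pearson r with the mean of their 5 probes, were MACO1 (0.988), PPIF (0.987), COX7B (0.987), NARF (0.987) and PDGFD (0.986). In all, 67 of 28338 probes had an r above 0.95, and these include 4 of the 5 reference probes and the KRT16P2 and KRT42P A_33_P3857239 probes. With 3 arrays in each group, such an r largely restates the difference between the siRNAs. MACO1 codes for a membrane protein of the endoplasmic reticulum, PPIF for a cyclophilin of mitochondria, COX7B for a part of cytochrome c oxidase and PDGFD for a growth factor. Their A172 differences were smaller than those of the 4 called keratin probes, at 0.56, 1.49, 0.26, 0.59 and 1.17. In U87-MG, PDGFD was not detected, and limma gave PPIF a difference of 0.61 that was higher in 4 of 4 sets, with an adjusted p of 1.00 without and 0.106 with the set as a block. With the block PPIF was called higher in U87-MG, beside 2.12% of all tested probes. Its U87-MG groups did not overlap, beside 2.8% of all tested probes in either direction. The PPIF difference was 1.06 in set 3 and 0.44 to 0.48 in the other sets. The latter are below 0.5, although that threshold applies to the mean of 0.61.

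The members lie in the keratin clusters of chromosomes 12 and 17, with KRT5, KRT6A, KRT6B, KRT7, KRT8 and KRT18 on the first and KRT14, KRT16, KRT17 and KRT19 on the second. In the RefSeq order along chromosome 17, KRT14, KRT16, KRT17 and KRT42P follow each other, with a noncoding RNA that has no probe between KRT14 and KRT16. The keratin and keratin pseudogene probes called higher in A172 belong to these neighbours, except for KRT16P2, which lies elsewhere on chromosome 17. The KRT14 probe A_21_P0011633 and the KRT42P probe A_33_P3341490 belong to them too and were not called without a block. The genes were chosen by this A172 contrast through KRT14, KRT16 and KRT17, so nothing is read from their place side by side. Which of their much alike RNAs a probe read cannot be told apart. Further away in the cluster, a probe of the hair keratin associated protein KRTAP3-1 differed by 1.01, with an r of 0.969 to the keratin mean. This probe was picked for its r after the values were seen. Its gene has 2 probes on the array. The other probe and those of the other keratin associated proteins of the cluster are not given here. On one side of the run, KRT9 differed by 0.24, KRT19 by 0.10, KRT15 by 0.03 and KRT13 by 0.58, and on the other side EIF1 differed by 0.11, GAST by 0.08 and HAP1 by -0.06. KRT15, a basal keratin, was bright on every array of A172, with a mean of 6.16 in controls and 6.19 after knockdown. On chromosome 12, no keratin probe outside the members that was tested in A172 differed by more than 0.80 in size.

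**Figure D4:**
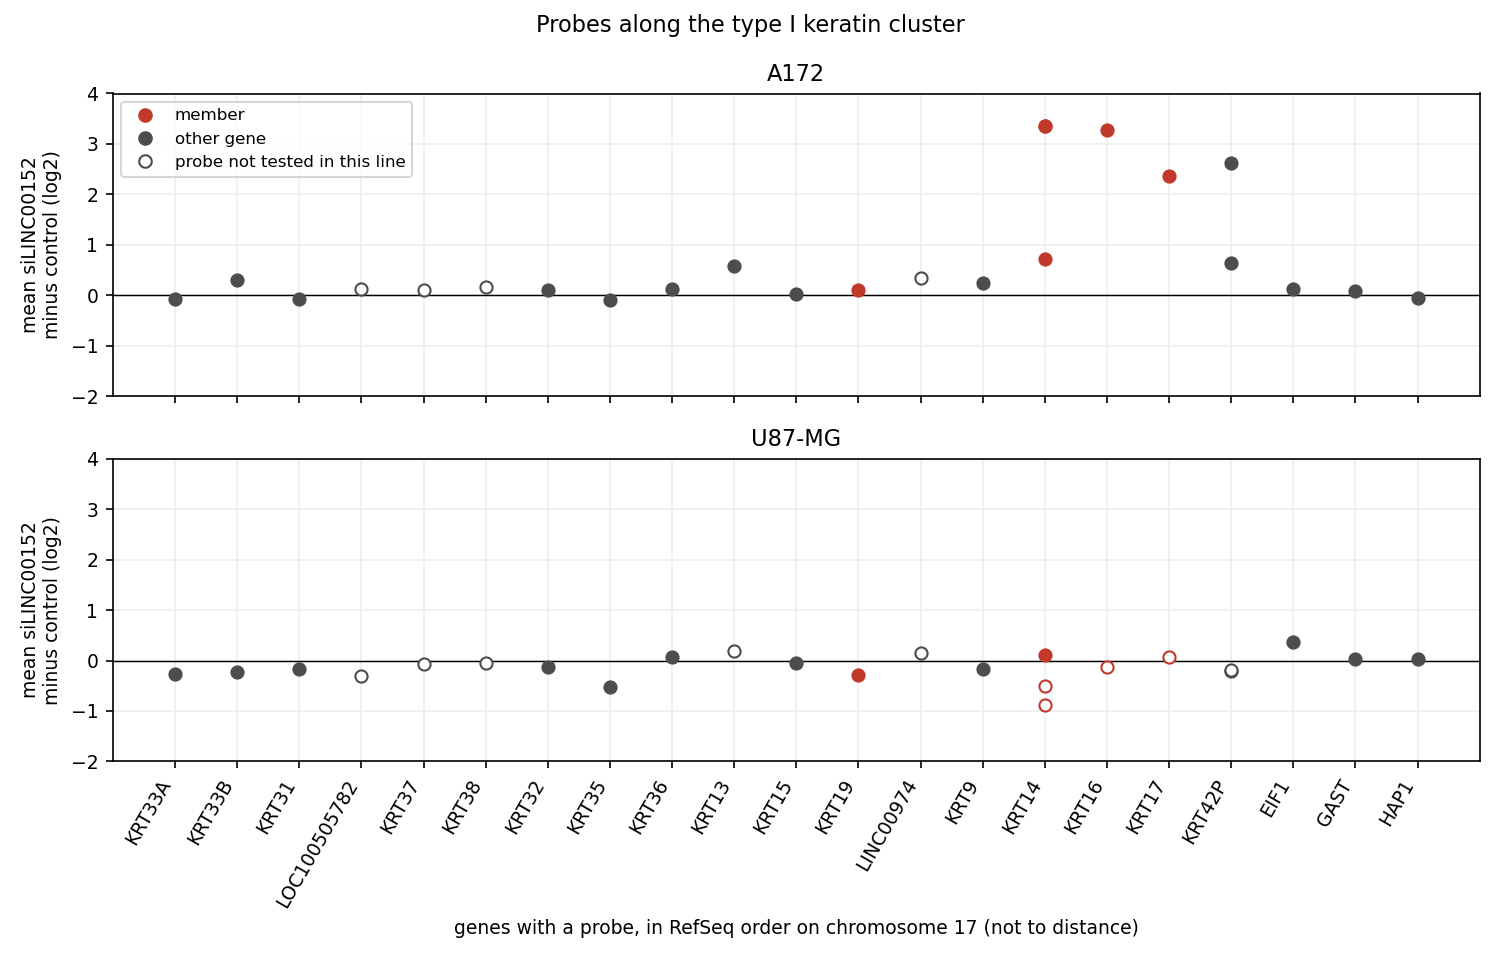
Mean log2 difference between siLINC00152 and control for probes of genes along the type I keratin cluster of chromosome 17, in RefSeq order and not to distance, in A172 (top) and U87-MG (bottom), with members in red and open circles for probes not tested in that line. In A172 the points lie at 0.24 for KRT9, 3.29 for KRT16, 2.37 for KRT17 and 0.11 for EIF1. In U87-MG they stay between -0.88 and 0.36 over the same genes. The A172 contrast chose KRT14, KRT16 and KRT17, and which of their alike RNAs a probe read cannot be told apart.

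Other keratins and the proteins that hold keratin filaments were taken as lists. Of the other type I keratins, 23 of 24 genes had a probe, 15 probes were tested in A172 and 11 in U87-MG, and of the type II keratins 20 of 21 genes had a probe, with 14 and 13 probes tested. Without a block limma called 0 of them in either line, with 1 at an unadjusted p below 0.05, a type II probe in A172. With the set as a block, limma called KRT80, a type II keratin, lower in A172 by -0.80 (adjusted p = 0.0242, 3 of 3 sets), and KRT35, a hair keratin, lower in U87-MG by -0.52 (adjusted p = 0.190, 4 of 4 sets). The KRT35 probe was detected on 3 of 4 control and 2 of 4 knockdown arrays of U87-MG, and its difference ran from -0.91 to -0.23 in the 15 of 21 fits with a set or an array left out in which it could be tested, and was -0.0822 with normexp. The median difference was 0.06 for type I and -0.03 for type II probes in A172, beside 0.02 for all tested probes. In U87-MG these medians were -0.18 and -0.22, beside -0.02.

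Desmosomes and plakins, which anchor keratin filaments to cell contacts, had 20 probes tested in A172. Of these, limma called 0 without a block, with 1 at an unadjusted p below 0.05, and 4 with it, all lower, against 1.09% of all tested probes called higher and 2.17% called lower with the block in A172. The plakin DST was lower by -1.20 (adjusted p = 0.00733 with the block in limma, 3 of 3 sets), the desmosomal cadherin DSG2 by -0.75 (adjusted p = 0.0304 with limma, 3 of 3 sets) and the plakin PLEC by -0.71 and -0.69 with its probes. With a set or an array left out the DSG2 difference ran from -1.18 to -0.35. DSC3 and DSG3 were not detected in either line. In hemidesmosomes and the basement membrane, where basal keratins attach, limma called 0 of 7 probes in A172 without a block, with 3 at an unadjusted p below 0.05, and 2 with it. These were the integrin ITGA6, lower by -1.96 (adjusted p = 0.0230, 3 of 3 sets), and the laminin LAMB3, lower by -0.98 (adjusted p = 0.0418, 3 of 3 sets), both in limma with the block. The ITGA6 probe was detected on 3 of 3 control and 1 of 3 knockdown arrays, so the size of its difference is not a measured one. The list medians in A172 were -0.17 and -0.68, beside 0.02 for all tested probes. In U87-MG, 0 of 12 desmosome and plakin probes were called in either fit, with 0 at an unadjusted p below 0.05 in limma without the block, and of 5 hemidesmosome and basement membrane probes limma called 0 without the block, with 1 at an unadjusted p below 0.05, and LAMB3 higher with it.

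Among other intermediate filaments, limma called 0 of 15 probes in A172 and 0 of 9 in U87-MG without a block, with 1 and 0 at an unadjusted p below 0.05. With the block BFSP1, a filament protein of the lens, was lower in A172 by -1.23 (limma, adjusted p = 0.0507, 3 of 3 sets). Regulators of keratin genes, with TP63, KLF and AP-1 factors among them, had 25 probes tested in A172 and 24 in U87-MG. Limma called 0 of them in A172 in either fit, with 0 at an unadjusted p below 0.05 without the block and 5 with it. In U87-MG it called 0 without the block, with 1 at an unadjusted p below 0.05, and GLI2, a factor of Hedgehog signalling, lower by -0.69 with the block (limma, adjusted p = 0.0671, 4 of 4 sets). The GLI2 probe was detected on 3 of 4 control and 0 of 4 knockdown arrays there, so its knockdown level is not a measured one. Keratin binding and turnover genes, with 11 and 10 probes tested, held 0 calls in limma in either line and either fit, and 0 at an unadjusted p below 0.05 without the block.

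The keratinocyte differentiation and alarmin genes held 0 of 17 probes called in A172 and 0 of 13 in U87-MG in limma without a block, with 1 in each line at an unadjusted p below 0.05. With the block the S100A2 probe was higher in U87-MG by 0.56 (limma, adjusted p = 0.149, 4 of 4 sets). EGFR ligands, which drive stress keratins in wounded skin, had 3 probes tested in each line and targets of NRF2, an activator of KRT6A, KRT16 and KRT17, had 7 in each line. Limma called 0 of both lists in both lines without the block, with 0 at an unadjusted p below 0.05. With the block in U87-MG, HBEGF was higher by 1.35 (limma, adjusted p = 0.178, 4 of 4 sets) and NQO1 by 0.79 (limma, adjusted p = 0.167, 4 of 4 sets), while in A172 HBEGF was not detected often enough to be tested and NQO1 differed by -0.18. HBEGF was detected on 2 of 4 control and 3 of 4 knockdown arrays of U87-MG and NQO1 on 3 of 4 in each group, both undetected on knockdown array 3, and without that set HBEGF differed by 1.57 and NQO1 by 0.51. With a set or an array left out HBEGF ran from 0.88 to 2.04 in the 15 of 21 fits in which it could be tested, and NQO1 from 0.12 to 1.18 in 18 of 21. Of all tested U87-MG probes 2.12% were called higher and 2.07% lower with the block, and of all A172 probes 1.09% and 2.17%, and a single call in a list is too few to set apart from these shares.

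The marker lists gave 0 calls in limma without a block in either line, with 0 at an unadjusted p below 0.05 except for 1 fibroblast probe in each line. The epithelial and squamous lists also held 0 calls with the block in both lines. With the block CD44, a hyaluronan receptor in the glioma list, was lower in A172 by -1.13 (limma, adjusted p = 0.00807, 3 of 3 sets), and so was PDGFRB of the fibroblast list by -0.77 (limma, adjusted p = 0.0827, 3 of 3 sets). The CD44 difference ran from -1.51 to -0.67 when a set or an array was left out. COL1A2 of the fibroblast list was higher in U87-MG by 0.95 (limma, adjusted p = 0.0365, 4 of 4 sets). Leukocyte and endothelial lists held 0 calls in either fit.

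**Figure D5:**
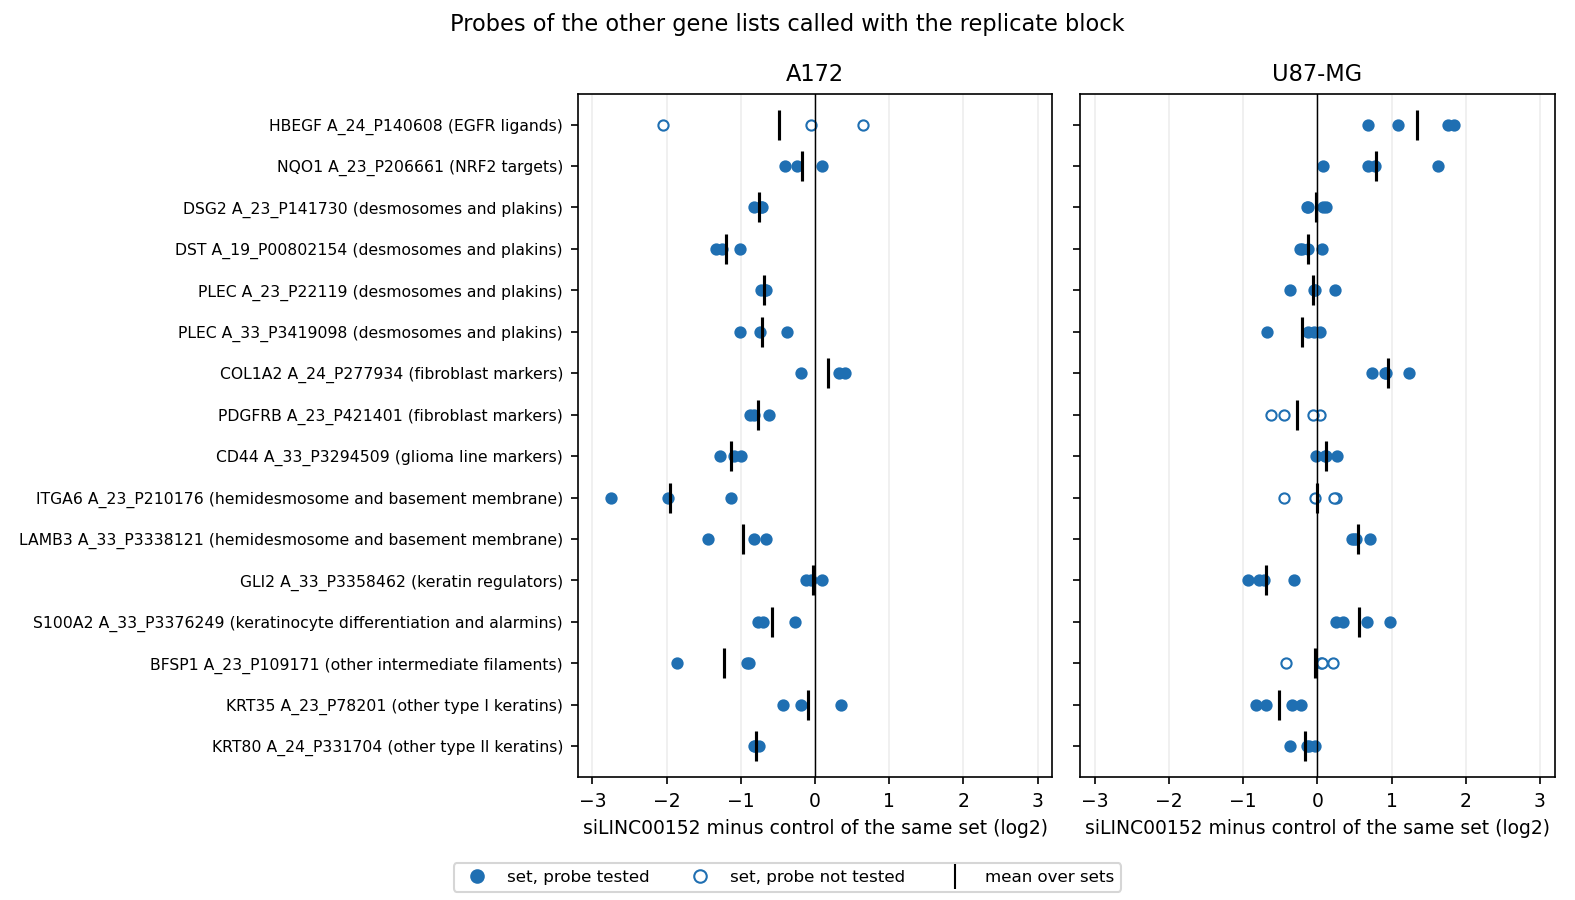
Log2 difference between the knockdown and the control array of each set for the 16 probes of the other lists, keratin pseudogenes aside, that were called in limma with the set as a block in either line, in A172 (left) and U87-MG (right), with open circles for probes not tested in that line and black bars for means over sets. The LAMB3 and S100A2 sets lie below 0 in A172 and above 0 in U87-MG, and the ITGA6 mean of -1.96 in A172 rests on a knockdown group detected on 1 of 3 arrays.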

How the data were processed

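Cy3-labelled RNA of 14 cultures was measured on single-colour Agilent arrays. The authors deposited the spot intensity as scanner output (Feature Extraction 11.5.1.1), with background removed within each array and no normalization between arrays. The authors also deposited log2 values normalized between arrays, for which the supplement points to an earlier publication that was not used here. They rank as the processed signal does (lowest Spearman coefficient 1) and have nearly the same distribution on every array (largest gap at a rank 0.394), and they served as an alternative here. From the log2 of the processed signal the log2 of the array's own 75th percentile (controls left out) was subtracted, outlier spots were dropped and repeated spots were averaged. A line's test took the probes that 3 or more arrays in a group showed well above background, with limma 3.58.1 in R 4.3.3 (version 1.17.8 of data.table), using 1 model with 4 group means, Benjamini-Hochberg adjustment within a line, an FDR below 0.2 and an absolute log2 difference above 0.5. The fit was tested on simulated data.

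Accessions matched RefSeq's gene table (GRCh38.p14) for 29033 of 50599 probes, which served for names and neighbours only. Members and lists were chosen with earlier results of these data known. Named probes are those of the members, of keratin pseudogenes and of the LINC00152 locus, up to 6 probes per other list with the largest called differences in either fit, and the 5 genes most like KRT14, KRT16 and KRT17. Set numbers were checked for pairing by correlating deviations from group means. For arrays of the same number r was 0.675 to 0.794 in A172 and 0.373 to 0.864 in U87-MG. For others it was -0.701 to -0.0437 and -0.772 to 0.411. In U87-MG control array 1 had an r of 0.373 with knockdown array 1 and 0.403 with knockdown array 2. The pairing of that set is thus not shown by these values, and fits with the block rest on it. Alternatives were the set as a block, normexp background correction (offset 50), quantile normalization, the deposited log2 values, no filter or a stricter filter on dim probes, each line by itself, outlier spots kept, an FDR below 0.05, and each set or array left out. The other lists and the LINC00152 probes had the first 4 of these and the sets or arrays left out. Leaving out sets and arrays for the other lists and the LINC00152 probes was chosen after seeing the data. Other experiments of the study were not analysed here.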

Additional observations from a re-analysis of the deposited data

Results flagged for a closer look

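Single arrays far from the others of their group were looked for in 92 groups of 4 U87-MG arrays, and 9 were found, where chance gives about 1 in 20 groups. All 9 were arrays of set 3, the dim set of that line. Control array 3 was high for KRT16P3 A_21_P0011637 (0.0937, others -1.30 to -1.13), for KRT17P5 A_32_P46238 (1.79, others 0.37 to 0.55) and for KRT17P5 A_33_P3221898 (-1.41, others -2.51 to -2.35, undetected on array 3). It was also high for PLEC A_33_P3419098 (5.78, others 3.32 to 3.68), and low for CD44 A_33_P3294509 (1.27, others 2.79 to 3.05) and KRT80 A_24_P331704 (0.50, others 1.20 to 1.34). Knockdown array 3 was high for the same PLEC probe (5.10, others 3.32 to 3.56), and low and undetected for HBEGF (-2.76, others -0.15 to 0.12) and NQO1 (-1.68, others -0.20 to -0.08). The part of the brightness of these arrays in the values was not tested.

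In LAMB3 (A_33_P3338121) and S100A2 (A_33_P3376249) every set moved down in A172 and up in U87-MG. The mean difference of LAMB3 was -0.98 in A172 and 0.55 in U87-MG, which are -1.53 apart, and that of S100A2 was -0.58 and 0.56, which are -1.15 apart. Whether the lines differ was not tested.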

How the results depend on the processing

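The count of member probes called in A172 was 4 and changed with the sets used, from 0 to 4 when a set or an array was left out, with 0 without A172 set 3 and 1 without set 2. It was 3 with quantile normalization, the deposited log2 values, no filter, each line by itself or an FDR below 0.05, and KRT17 was the probe that dropped out each time. In U87-MG the count of member probes called was 0, 1 with the set as a block, and 0 whenever a set or an array was left out. For the other lists the count was 2 in A172 and 0 in U87-MG without a block, and 13 and 7 with it, pseudogene probes included, beside 1.09% of all probes called higher and 2.17% lower with the block in A172 and 2.12% and 2.07% in U87-MG. Leaving out a set or an array gave 0 to 4 in A172 and 0 throughout in U87-MG. The block removes the spread between sets, and its SE was smaller, at a median of 0.18 against 0.39 in A172 and 0.14 against 0.32 in U87-MG. Over all probes limma called 52 in A172, 924 with the block and 4 to 127 with a set or an array left out, and 11, 918 and 2 to 17 in U87-MG. The LINC00152 probes were called lower in every alternative run for them, which were the block, normexp, quantile normalization, the deposited values and the sets or arrays left out. With normexp the U87-MG differences were smaller, at -1.52 for CYTOR and -1.70 for MIR4435-2HG, and the A172 differences were -2.23 and -2.18. CYTOR stood at -2.78 to -2.45 in A172 and -2.82 to -2.59 in U87-MG and MIR4435-2HG at -2.56 to -2.32 and -3.15 to -2.83 when a set or an array was left out.

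None of the called differences of keratin, pseudogene, list and LINC00152 probes changed sign in the fits run for them. Apart from the block, no alternatives were run for PPIF, SORBS2, ELAVL2 and the unnamed probes. Several differences in U87-MG that were not called did so when a set or an array was left out, and the cause was not tested: KRT14 A_21_P0011633 at -0.18 to 0.46, KRT7 at -0.0357 to 0.22, KRT8 A_33_P3372368 at -0.50 to 0.0117, KRT16P3 at -0.0841 to 0.45, KRT17P5 A_32_P46238 at -0.27 to 0.22 and A_33_P3398618 at -0.76 to 0.18 (18 of 21 fits), KRT42P A_33_P3341490 at -0.41 to 0.0407 and KRT19P2 at -0.56 to 0.16. In A172 the small uncalled differences of KRT5 (-0.73 to 0.49), KRT7 (-0.24 to 0.31), KRT19 (-0.31 to 0.52), KRT8 A_23_P14072 (-0.28 to 0.23) and several pseudogene probes crossed 0 in the same way. In U87-MG KRT8 A_23_P14072 kept its direction at -0.74 to -0.35, as did KRT19 at -0.42 to -0.0374 (15 of 21 fits). Low signal over background limits what can be read of the stress keratins in U87-MG.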

Other observations

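KRT75, a type II keratin of hair follicles that lies next to KRT6B on chromosome 12, was detected on 1 of 3 A172 knockdown arrays, array 2, at -0.48, and on 0 of 3 A172 control arrays, and was not tested there. It was chosen for mention after its values were seen. KRT81, a hair keratin in the same cluster, was bright in A172, with a mean of 10.05 in controls and 10.08 after knockdown.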
